A study of Mus musculus with 6 samples.

Results

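The 10 genes described here are markers of macrophages, monocytes and neutrophils, chosen by name: Ptprc, Csf1r, Cx3cr1, Tyrobp, Aif1, C1qa, C1qb, Lyz2, S100a8 and S100a9. All 10 were found among the 38561 genes of the count table, and all 10 passed the filter on low counts that left 15498 genes for testing. None passed the test for a difference between the groups. Differences between libraries of the same group were large for some of them. Lyz2 was abundant in 1 library of each group together with its near copy Lyz1 and 2 gland genes. S100a8 and S100a9 were present, and genes of a neutrophil list differed widely in their reads. Elane, Mmp8, Mpo, Camp, Ngp and Ly6g had 0 to 2 reads in any library. Csf3r had 9 to 91 reads per library and Mmp9 37 to 352. Csf1r and C1qb, both macrophage genes, were high in different libraries.

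The RNA came from the vomeronasal organ, the pheromone-sensing epithelium of the nose, of male mice of the outbred CD-1 stock. Lysates were precipitated with an antibody that binds phosphorylated ribosomal protein S6, a mark that increases on ribosomes of recently active cells. Each library is thus meant to hold RNA bound to marked ribosomes. All 6 libraries are precipitates without a library of input RNA, so enrichment of any gene was not measured. One group of 3 libraries followed exposure to pups and the other 3 a control exposure, which the labels do not describe further. The labels give no age and do not say how many animals went into a library, so the spread behind each p-value is that between these libraries and may be technical.

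Macrophages are resident phagocytes that clear dying cells, which matters in an epithelium whose neurons are replaced throughout life. They depend on signals through the receptor Csf1r, secrete the C1q subunits that start the classical complement pathway, and carry activating receptors that signal through the adaptor Tyrobp. Neutrophils are short-lived blood phagocytes whose cytoplasm is rich in the calcium-binding proteins S100a8 and S100a9.

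Depth did not overlap between the groups: the control libraries held 10590716 to 11240065 reads and the pup libraries 18199476 to 20871266. Values below are CPM, read counts scaled to a common library size by TMM. TMM factors ran from 0.605 in control exposure replicate 3 to 1.39 in pup exposure replicate 2. Fold changes are given as log2 of the pup over the control group, from edgeR's quasi-likelihood test with Benjamini-Hochberg adjustment over all genes tested. In this test 0 of 10 members passed an adjusted p of 0.05, as did 0% of all genes in either direction. At an unadjusted p under 0.05 the members numbered 0 of 10, where the share over all genes was 11.0%. DESeq2 called 0 of the 9 members to which it gave an adjusted p (it gave none to Lyz2), against 1.03% of all genes, and limma-voom called 0 of 10, against 0.0516%. The fitted change was positive for 5 members and negative for 5, with a median of -0.085 on the log2 scale, and the median over all genes tested was 0.030. The groups did not overlap in 1 of 10 members, Aif1, against 19.8% of all genes: 0 members lay above (10.1% of all genes) and 1 below (9.60%).

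**Figure D1:**
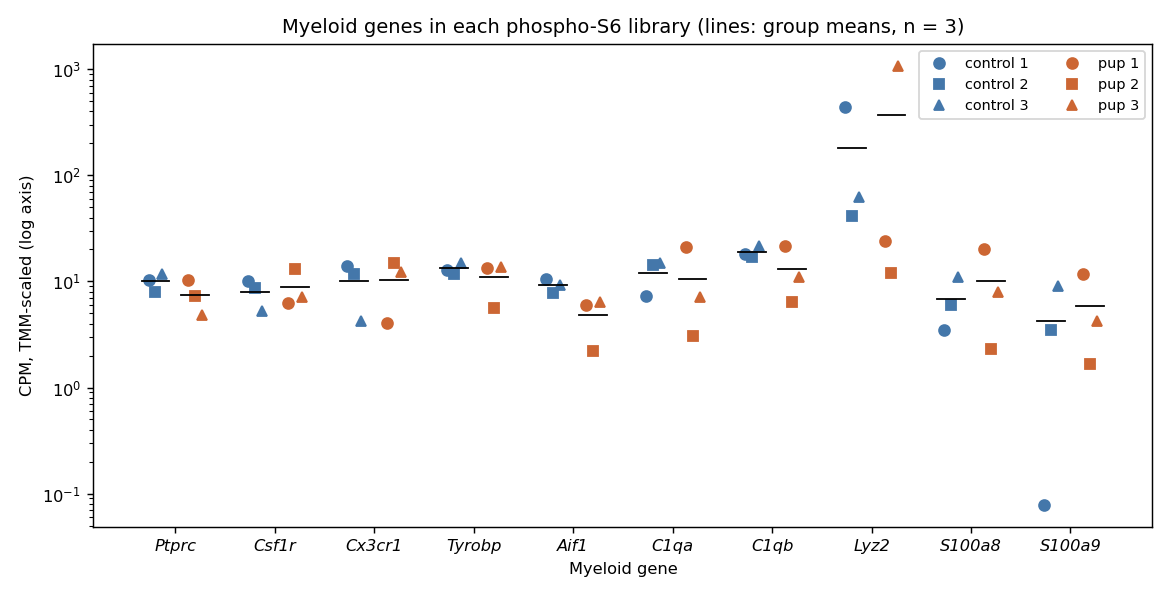
CPM of each myeloid gene on a log axis, with 1 point per library (blue for control exposure, orange for pup exposure, marker shape for the replicate number) and a line at each group mean. The groups overlap for every gene except Aif1, and Lyz2 spans from 11.9 to 1074 CPM.

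Among the surface receptors, Ptprc encodes CD45, the phosphatase carried by all nucleated blood cells. It was at 10.3, 7.89 and 11.9 CPM in the control exposure libraries and at 10.3, 7.23 and 4.85 CPM in the pup exposure libraries. The groups overlapped, and pup exposure replicate 3 was the lowest library. Its log2 fold change was -0.42 (SE 0.47, 95% interval -1.45 to 0.60), with an edgeR adjusted p of 0.742.

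Csf1r is the receptor tyrosine kinase through which macrophages receive their survival signal. Its values were 10.03, 8.61 and 5.31 CPM in the control libraries and 6.22, 13.1 and 7.17 CPM in the pup libraries. The lowest library was control exposure replicate 3 and the highest was pup exposure replicate 2, so the groups overlapped. The log2 fold change was 0.14 (SE 0.49, 95% interval -0.93 to 1.22, edgeR adjusted p = 0.927). Of the 50-base words of the longest Csf1r transcript, 17.7% also lie in Hmgxb3 on the opposite strand. Strand use in the counting is not given in the sources used here, so reads of the shared stretch cannot be assigned. Hmgxb3 itself had 389 reads in pup exposure replicate 2, the library where Csf1r was highest with 371 reads, and 0 in control exposure replicate 3, where Csf1r was lowest with 34, and its part in the Csf1r values was not tested. Csf1 and Il34, the ligands of Csf1r, had log2 fold changes of 0.91 (SE 0.70) and -0.13 (SE 0.66), with edgeR adjusted p of 0.620 and 0.954.

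Cx3cr1 is the receptor for the membrane-bound chemokine Cx3cl1 and marks resident macrophages and monocytes. It was at 13.95, 11.8 and 4.22 CPM in the control libraries and at 4.08, 14.8 and 12.2 CPM in the pup libraries. Each group therefore held 1 low library, control exposure replicate 3 and pup exposure replicate 1, and the other libraries lay between 11.8 and 14.8 CPM. Between the groups the log2 fold change was 0.042 (SE 0.58, 95% interval -1.23 to 1.31, edgeR adjusted p = 0.983). Cx3cl1 was at 14.2 ± 4.67 and 9.51 ± 2.46 CPM (SD, n = 3 each), and its log2 fold change was -0.58 (SE 0.45, edgeR adjusted p = 0.623).

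Tyrobp is the membrane adaptor, also called DAP12, that couples receptors such as Trem2 to the kinase Syk. Its values were 12.9, 11.8 and 15.001 CPM in the control libraries and 13.5, 5.67 and 13.5 CPM in the pup libraries. The groups overlapped, and pup exposure replicate 2 was low while the other libraries were close together. For Tyrobp the log2 fold change was -0.28 (SE 0.46, 95% interval -1.28 to 0.72, edgeR adjusted p = 0.832).

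Aif1 encodes IBA1, an actin-binding protein of the macrophage cytoplasm that is widely used to stain these cells. It was at 10.5, 7.80 and 9.22 CPM in the control libraries and at 6.01, 2.23 and 6.38 CPM in the pup libraries. Every pup exposure library lay below every control exposure library, a pattern that 9.60% of all genes tested shared in this direction. Its log2 fold change was -0.92 (SE 0.54, 95% interval -2.10 to 0.26), which did not pass (edgeR adjusted p = 0.534, unadjusted p = 0.117). In bulk RNA, fewer cells of a type and less RNA per cell cannot be told apart, and in a precipitate neither can a smaller marked share of their ribosomes.

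**Figure D2:**
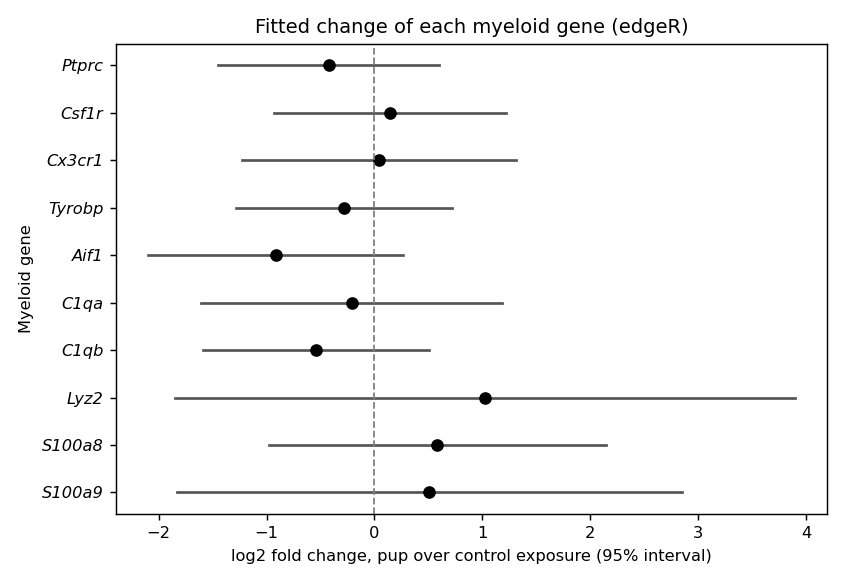
Log2 fold change of each myeloid gene, pup exposure over control exposure, on the horizontal axis, with lines for the 95% interval derived from edgeR's test statistic (3 libraries per group). Every interval includes 0, and that of Lyz2, from -1.85 to 3.90, is the widest.

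C1qa and C1qb encode chains of C1q, the recognition molecule of the classical complement pathway, and lie close together on chromosome 4 (GRCm38, GENCODE M21, minus strand: C1qa from 136895917 to 136898803 and C1qb from 136880129 to 136886187). C1qa was at 7.21, 14.2 and 15.001 CPM in the control libraries and at 21.2, 3.08 and 7.07 CPM in the pup libraries. The pup exposure group held both the highest library, replicate 1, and the lowest, replicate 2. C1qb was at 18.3, 17.0 and 21.6 CPM in the control libraries and at 21.7, 6.45 and 11.0 CPM in the pup libraries. Here too replicates 1 and 2 of pup exposure were the highest and the lowest library. The log2 fold change of C1qa was -0.21 (SE 0.64, 95% interval -1.60 to 1.18, edgeR adjusted p = 0.914). That of C1qb was -0.54 (SE 0.48, 95% interval -1.58 to 0.51, edgeR adjusted p = 0.672). Without pup exposure replicate 1 the log2 fold changes were -1.25 (unadjusted p = 0.0460) and -1.12 (unadjusted p = 0.0282), and the edgeR adjusted p were 0.399 and 0.361. Over all alternatives the adjusted p ran from 0.382 to 0.995 for C1qa and from 0.361 to 0.955 for C1qb. The third chain, C1qc, had a log2 fold change of -0.16 (SE 0.82).

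A promoter window was available for 7 of the 10 members in the RefSeq table of the GRCm38.p6 build: Ptprc, Cx3cr1, Aif1, Lyz2, C1qb, S100a8 and S100a9. The 250 bases before the start site were searched on both strands for GAGGAA, the core bound by the myeloid factor PU.1, and for TTGCNNAA, a core bound by C/EBP factors. GAGGAA occurred in 4 of the 7 (Aif1, C1qb, S100a8 and the first listed window of Ptprc), against 23.3% of all 32851 windows, and TTGCNNAA in 1 of 7 (S100a9), against 9.56%. Some windows hold exon bases annotated in GENCODE M21: 250 for Cx3cr1, 93 for S100a8, 49 for Lyz2 and 16 for Aif1. The Aif1 match, 7 bases before the start, and 1 of the 2 S100a8 matches, at 36 bases, lie within such exon bases. The searched motifs do not overlap each other in these windows, and a match is a run of letters, not a shown binding site. The C1qb window (chr4:136886201-136886450, minus strand) is printed because no annotated exon lies in it and it holds a GAGGAA match, with the match in capitals.
C1qb: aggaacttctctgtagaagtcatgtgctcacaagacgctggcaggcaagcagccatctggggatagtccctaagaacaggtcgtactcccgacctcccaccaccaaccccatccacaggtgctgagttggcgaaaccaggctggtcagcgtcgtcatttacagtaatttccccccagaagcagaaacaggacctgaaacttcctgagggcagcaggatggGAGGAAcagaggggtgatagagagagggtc

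Lyz2, the lysozyme of macrophages and neutrophils that digests bacterial cell walls, held 17.3% to 93.5% of the reads of the 10 members. It had 5628, 464 and 397 reads in the control libraries and 448, 337 and 21729 in the pup libraries. On the CPM scale these were 441, 41.6 and 62.0 in the control libraries and 24.0, 11.9 and 1074 in the pup libraries. Control exposure replicate 1 and pup exposure replicate 3 stood far above the other 4 libraries, so that each group had 1 high library. The SD of its log2 CPM over the 6 libraries was 2.51, above that of 99.7% of genes tested, whose median was 0.686. For Lyz2 the log2 fold change was 1.03 (SE 1.32, 95% interval -1.85 to 3.90, edgeR adjusted p = 0.782). Without pup exposure replicate 3 it was -3.37 (unadjusted p = 0.00662, edgeR adjusted p = 0.415), and without both high libraries, a setting chosen after seeing the data, -1.53 (unadjusted p = 0.0173, edgeR adjusted p = 0.596). Its adjusted p ran from 0.384 to 0.938 over all alternatives that gave one.

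Lyz1 is a near copy of Lyz2 that lies beside it on chromosome 10 and is known as the lysozyme of Paneth cells of the gut. Its reads numbered 277, 0 and 1 in the control libraries and 1, 11 and 8224 in the pup libraries, so it was high in the same 2 libraries. The coding sequences of both genes have 444 bases and differ at 22 of them, and 15.4% of the 50-base words of the Lyz2 transcript also occur in Lyz1. Reads of those stretches could be counted under either gene. The coding stretch where differences are densest (bases 43 to 132 from the start codon, 13 differences in 90 bases, GENCODE M21) shows where reads tell them apart, with the differing bases in capitals.
Lyz2: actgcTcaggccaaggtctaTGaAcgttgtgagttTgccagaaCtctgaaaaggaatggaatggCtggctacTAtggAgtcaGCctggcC
Lyz1: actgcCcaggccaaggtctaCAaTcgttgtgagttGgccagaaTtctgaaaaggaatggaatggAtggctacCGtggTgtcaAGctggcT

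Their upstream sequences are also alike: 80 bases before the Lyz2 start annotated in GENCODE M21 (RefSeq sequence, GRCm38.p6, chr10:117282322-117282401, minus strand) and the matching 80 bases of Lyz1 (chr10:117292918-117292997, minus strand) were identical at 87.5% of positions when set side by side without gaps. Neither strand of these windows holds GAGGAA or TTGCNNAA. Both are printed because the genes were high in the same libraries, with the 10 differing bases in capitals.
Lyz2 upstream: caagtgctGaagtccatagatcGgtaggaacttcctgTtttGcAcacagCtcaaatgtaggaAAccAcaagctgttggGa
Lyz1 upstream: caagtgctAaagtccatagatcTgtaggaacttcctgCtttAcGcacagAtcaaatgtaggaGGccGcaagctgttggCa

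The gland genes Bpifa1 and Obp1a were highest in the same 2 libraries, and Muc5b, Obp2a and Obp2b were not. Bpifa1, a secreted protein of airway glands, was at 678, 4.30 and 87.5 CPM in the control libraries and at 78.0, 25.6 and 298 CPM in the pup libraries. Obp1a, an odorant-binding protein, was at 13.95, 2.33 and 3.75 CPM and at 8.79, 3.40 and 82.7 CPM. Of 15497 other tested genes, Obp1a ranked 4 and Bpifa1 77 by likeness to Lyz2 over the 6 libraries (root mean square difference of centred log2 CPM 1.28 and 1.75). The nearest member, Aif1, ranked 552 (1.99). Muc5b, a gel-forming mucin, was highest in control exposure replicate 3, at 220 CPM, against 115 and 63.8 CPM in the 2 libraries rich in Lyz2. The summed level of 10 nasal gland genes, led by Obp2a and Obp2b, was 215426, 313979 and 729178 CPM in the control libraries and 316698, 171620 and 386554 CPM in the pup libraries. By this sum control exposure replicate 1 was the lowest library of its group and pup exposure replicate 3 the highest of its own. Without a filter on low counts, edgeR called Lyz1 (log2 fold change 4.22, adjusted p = 6.9e-14) and Obp1a (2.27, adjusted p = 0.00290) higher and Muc5b lower (-1.89, adjusted p = 0.00724). The groups overlapped in each of these genes, and Lyz1 did not pass the filter of the main fit. The calls of Lyz1 and Obp1a rest on pup exposure replicate 3, as their other pup libraries lay below control exposure replicate 1. In the unfiltered fit the SE of Lyz2 was 0.47, against 1.32 in the main fit. The part of gland RNA in the Lyz2 values was not tested. With Lyz2 set aside, the other 9 members held 0.00845% ± 0.00198 of the control libraries' reads and 0.00894% ± 0.00250 of the pup libraries' reads (SD, n = 3 each). With Lyz2 the shares were 0.0278% ± 0.0278 and 0.0450% ± 0.0575.

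**Figure D3:**
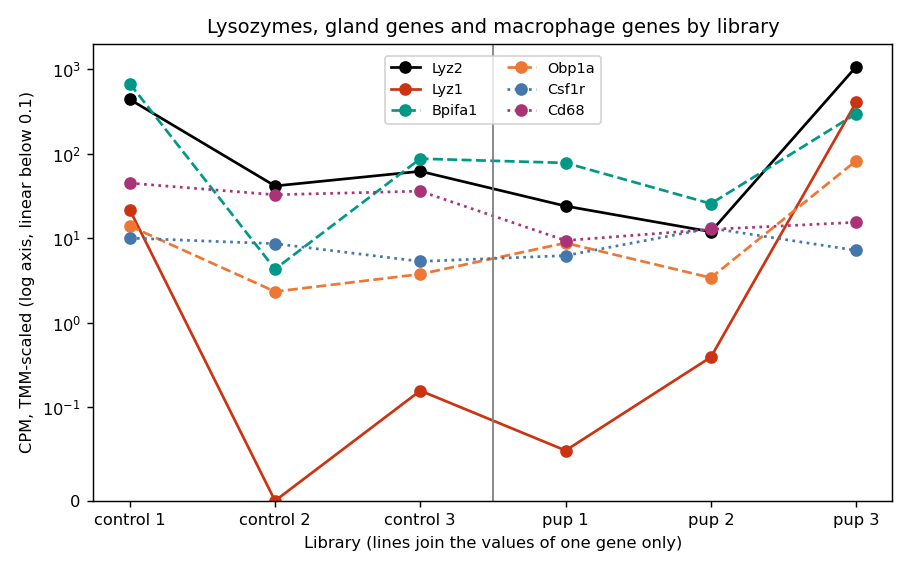
CPM of both lysozymes, the gland genes Bpifa1 and Obp1a and the macrophage genes Csf1r and Cd68 in each library, on a log axis that is linear below 0.1, with lines joining the values of a gene. Lyz1 reaches 406.6 CPM in pup exposure replicate 3 and is listed at 0 in control exposure replicate 2, while Csf1r stays between 5.31 and 13.1 CPM.

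S100a8 and S100a9 pair to form calprotectin, which binds calcium and withholds metal ions from bacteria. Their genes are neighbours on chromosome 3 (GRCm38: S100a8 from 90668978 to 90670035, plus strand, and S100a9 from 90692632 to 90695721, minus strand). S100a8 was at 3.45, 6.01 and 11.1 CPM in the control libraries and at 20.3, 2.30 and 7.96 CPM in the pup libraries. S100a9 was at 0.0784, 3.50 and 9.06 CPM in the control libraries and at 11.9, 1.66 and 4.20 CPM in the pup libraries. Both were highest in pup exposure replicate 1, followed by control exposure replicate 3. The log2 fold changes were 0.58 (SE 0.71, 95% interval -0.98 to 2.14, edgeR adjusted p = 0.771) for S100a8 and 0.51 (SE 1.07, 95% interval -1.83 to 2.85, edgeR adjusted p = 0.874) for S100a9.

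In 5 of the libraries S100a8 had 1.22 to 1.89 reads per read of S100a9. In control exposure replicate 1 there were 44 reads of S100a8 and 1 of S100a9, a ratio with an exact 95% interval of 7.50 to 1777 that covers counting error only. The S100a9 value of that library rests on this 1 read (exact Poisson 95% interval 0.0253 to 5.57 reads). Without that library the log2 fold change of S100a9 was -0.077.

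Genes of the neutrophil list differed widely in their reads. Elane, an elastase, Mmp8, a collagenase, and Ly6g, the surface antigen used to sort mouse neutrophils, had 0 reads in all 6 libraries, which allows a level of up to 0.106 to 0.468 CPM per library (3 reads of the scaled total). Mpo and Cebpe had 1 read each over all libraries, Camp had 2 and Ngp had 1 and 2 reads in pup exposure replicates 1 and 2. Csf3r, the receptor for granulocyte colony-stimulating factor, had 9 to 91 reads per library, and Cxcr2, the chemokine receptor of neutrophils, 0 to 25. Of the 14 genes of this list, 6 were tested, with 3 positive and 3 negative changes, and 0 passed in edgeR (0 at an unadjusted p under 0.05), with a median of -0.030. Mmp9, a gelatinase, had the smallest p of these, with 7.76 ± 2.01 and 13.2 ± 1.57 CPM (SD, n = 3 each) and a log2 fold change of 0.76 (SE 0.43, edgeR adjusted p = 0.519). Ltf, the iron-binding lactoferrin, had 7086 to 14204 CPM and is a product of glands as well as of neutrophils. Lcn2, an iron-scavenging lipocalin of neutrophil granules and of epithelia, had 59.6, 297 and 314 CPM in the control libraries and 212, 116 and 225 CPM in the pup libraries. It was lowest in control exposure replicate 1, as S100a9 was, and ranked 386 of 15497 genes by likeness to S100a9. Il1b, an inflammatory cytokine, had 14.4 CPM in pup exposure replicate 1, the library highest for S100a8, and 0.283 to 4.84 CPM in the other libraries.

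S100a8 and S100a9 are also made by squamous epithelium. The summed level of the 12 squamous genes was 172, 131 and 687 CPM in the control libraries and 672, 66.9 and 260.3 CPM in the pup libraries. It was high in control exposure replicate 3 and pup exposure replicate 1 and lowest in pup exposure replicate 2, as S100a8 was. Sprr1a, a cornified envelope protein, was the most abundant of the 12 genes in every library, at 86.3, 71.9 and 567 CPM in the control libraries and 523, 30.0 and 188 CPM in the pup libraries. Sprr3, another envelope protein, was at 3.14, 2.15 and 24.5 CPM and at 25.5, 0.248 and 10.5 CPM. By likeness to S100a8, Sprr1a ranked 836 and Sprr3 9224 of 15497 genes, while C1qa ranked 91. By likeness to S100a9 they ranked 1305 (Sprr1a) and 6151 (Sprr3), and S100a9 was lowest in control exposure replicate 1. The keratins Krt6a and Krt6b were also highest in control exposure replicate 3 and pup exposure replicate 1 and lowest in pup exposure replicate 2. Krt6a was at 12.1, 2.42 and 22.3 CPM in the control libraries and 23.3, 0.921 and 9.20 CPM in the pup libraries. It ranked 5937 by likeness to S100a8 and 10408 by likeness to S100a9. Some other genes of the list did not follow. The basal keratin Krt5 was lowest in control exposure replicate 3 (2.66 CPM, against 8.15 to 11.7 CPM in the other libraries). The desmosomal cadherin Dsg3 was lowest in pup exposure replicate 1 (0.536 CPM, against 4.15 to 6.72 CPM). Krt14, the keratin partner of Krt5, lay between 6.38 and 10.04 CPM. Of the 12 genes, 11 were detected and Sprr1b was at 0 in every library. The part of squamous epithelium in the S100a8 and S100a9 values was not tested.

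**Figure D4:**
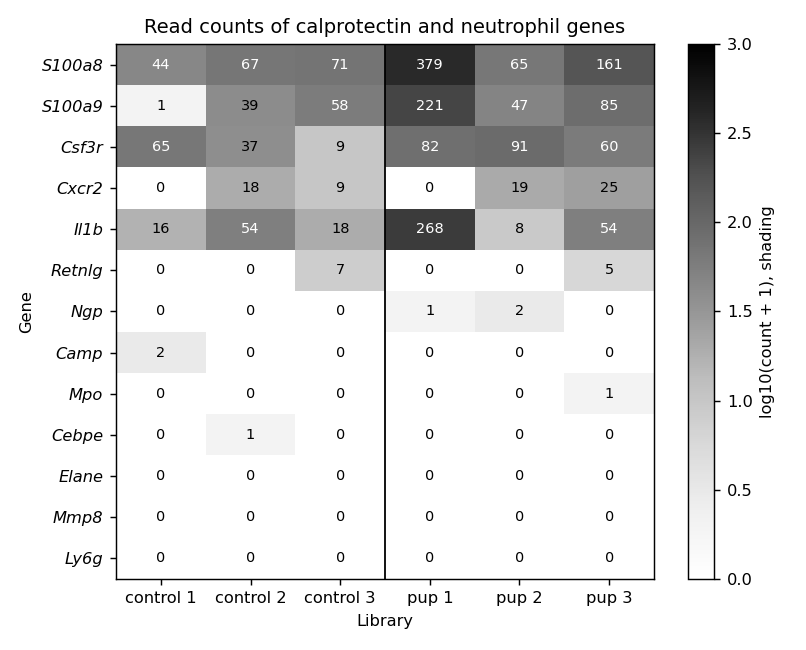
Read counts of S100a8, S100a9 and 11 genes of the neutrophil list in each library, printed in each square, with grey shading for log10(count + 1). Elane, Mmp8 and Ly6g are at 0 throughout, Csf3r has 9 to 91 reads and S100a8 has 44 to 379 reads.

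Levels of different genes were compared per kilobase of the longest annotated transcript. By mean CPM per kilobase over the 6 libraries Lyz2 led with 209.6 ± 322 (SD, n = 6), although its median was 39.4. It was followed by Tyrobp (20.2 ± 5.53), S100a8 (17.1 ± 13.2), C1qb (14.7 ± 5.61), C1qa (10.9 ± 6.42), S100a9 (9.75 ± 8.69) and Aif1 (8.03 ± 3.31). Cx3cr1 (2.26 ± 1.07), Csf1r (1.79 ± 0.609) and Ptprc (1.52 ± 0.446) were the lowest. Most neighbours in this order differed by less than the SD of either gene. Lyz2 and Tyrobp differed by less than the SD of Lyz2 only, and Lyz2 was the higher in 4 of 6 libraries. Aif1 and Cx3cr1 differed by more than either SD, and Aif1 was the higher in 5 of 6 libraries. The adaptor and the complement chains thus had higher mean levels per kilobase than the receptors Cx3cr1, Csf1r and Ptprc.

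Across libraries the macrophage genes did not share 1 pattern. Csf1r and Cx3cr1 were both low in control exposure replicate 3 and pup exposure replicate 1 and highest in pup exposure replicate 2. C1qa, C1qb, Tyrobp and Aif1 were all lowest in pup exposure replicate 2, where they lay at -1.58, -1.18, -1.01 and -1.46 from their own 6-library means on the log2 CPM scale. By likeness to C1qa, C1qb ranked 86 and S100a8 202 among 15497 tested genes, while Csf1r ranked 10126 and Cx3cr1 12905. The 3 genes nearest to C1qa were Gm10020, A930029G22Rik and Gm10399 (root mean square differences of 0.23, 0.24 and 0.27 in log2 CPM), and those nearest to S100a8 were Tnnt1, Bend5 and P3h3 (0.18, 0.22 and 0.25). These orders are a description over 6 libraries only.

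Transcript length went along with this split in control exposure replicate 3 and pup exposure replicate 2, but not in replicate 1 of either group. The longest transcripts of C1qa, C1qb, Tyrobp and Aif1 have 597 to 1088 bases, and those of Csf1r and Cx3cr1 have 4701 and 4493 bases. Over all tested genes, the 2532 with a longest transcript under 1500 bases had a median centred log2 CPM of 0.71 in control exposure replicate 3 and -0.73 in pup exposure replicate 2. The 5432 genes over 4000 bases had medians of -0.21 and 0.56 in the same libraries. Ptprc, with 5740 bases, did not follow the long genes: it was at 0.50 and -0.21 there. In pup exposure replicate 1 the short genes had a median of 0.015, while C1qa stood at 1.15 and S100a8 at 1.59. The long genes had a median of 0.14 in that library, while Csf1r stood at -0.36 and Cx3cr1 at -1.11. In control exposure replicate 1 the long genes had a median of -0.20, while Csf1r stood at 0.32 and Cx3cr1 at 0.63. Short genes had medians of 0.038, 0.11 and 0.71 in the control libraries and 0.015, -0.73 and 0.057 in the pup libraries. Long genes had medians of -0.20, -0.10 and -0.21 in the control libraries and 0.14, 0.56 and 0.052 in the pup libraries. The medians of the long genes thus lay higher in every pup library than in every control library. The part of transcript length in the members' values, and in the group differences of other genes, was not tested.

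**Figure D5:**
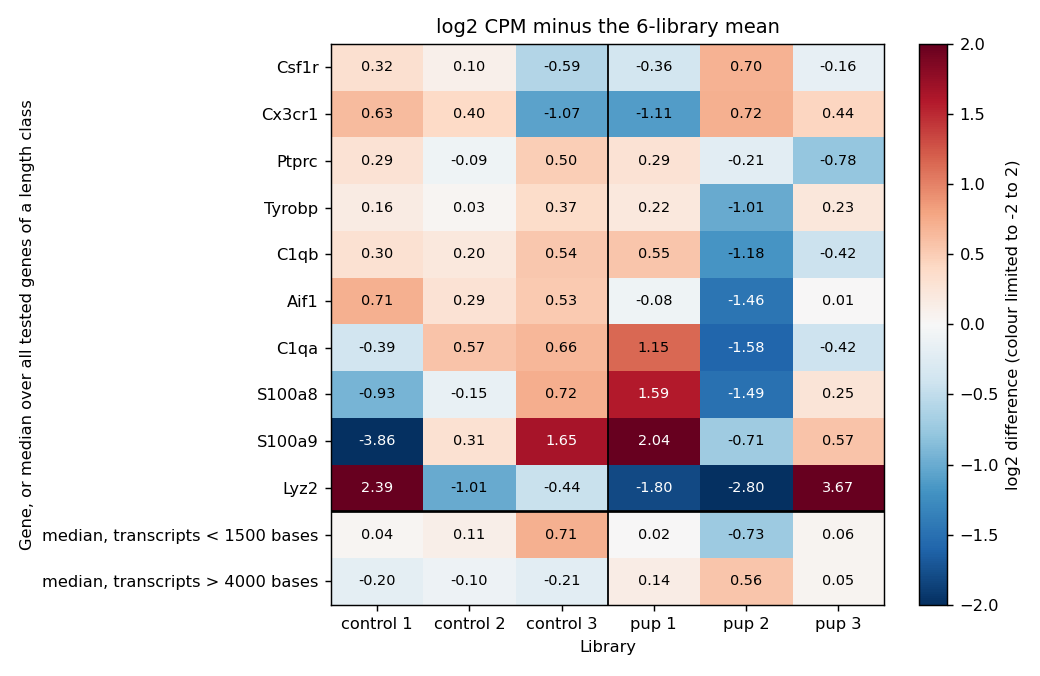
Log2 CPM minus the 6-library mean for each myeloid gene (rows) in each library (columns), with the median over all tested genes with short and with long transcripts below the line. Csf1r and Cx3cr1 are at 0.70 and 0.72 in pup exposure replicate 2, where C1qa is at -1.58 and the short transcripts at -0.73.

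Other genes were counted in the same fit, in lists of myeloid cells and their pathways and of the other cell types of the tissue. Of 16 lists with 156 genes, 120 genes were tested and 0 passed an edgeR adjusted p of 0.05, and the unadjusted p was under 0.05 for 4 in the higher and 9 in the lower direction (6.31% and 4.67% of all genes tested). Of those 9, B and plasma cell genes made up 3, mast cell genes 2 and red blood cell genes 2. Among 16 further mononuclear phagocyte genes, 15 were tested and none passed, with 6 positive and 9 negative changes and a median of -0.061. Cd68, a lysosomal glycoprotein of macrophages, had the smallest p of the list. It was at 44.9, 32.7 and 36.1 CPM in the control libraries and at 9.38, 12.7 and 15.4 CPM in the pup libraries. The groups did not overlap, the log2 fold change was -1.60 (SE 0.38), and the edgeR adjusted p was 0.375. DESeq2 called it lower (log2 fold change -1.64, SE 0.41, adjusted p = 0.0167), and over all alternatives its log2 fold change lay between -1.78 and -1.34, with adjusted p from 0.0167 to 0.831. The lysosomal protease Ctss (-0.89, SE 0.43), the Fc receptor Fcgr1 (-1.17, SE 0.65) and the transglutaminase F13a1 (1.40, SE 0.87) came next, with edgeR adjusted p of 0.466 to 0.550. Genes that distinguish microglia, the macrophages of the brain, had 7 tested members, and 0 passed in edgeR (0 at an unadjusted p under 0.05). Their median was 0.42, but it was -0.42 with pup exposure replicate 1 left out, -0.29 with pup exposure replicate 3 left out and -0.20 with control exposure replicate 1 left out.

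Among lineage factors, Spi1, which encodes PU.1, had 6 to 26 reads per library and a log2 fold change of 0.14 (SE 1.04). Of 10 ligands and lineage factors of the Csf1r pathway, 6 changes were positive and 4 negative, with a median of 0.35. Cebpb, a C/EBP factor of monocytes and many other cells, had the smallest p of these (log2 fold change 2.33, SE 0.98, edgeR adjusted p = 0.447). It had 5, 6 and 5 reads in the control libraries and 19, 84 and 92 in the pup libraries. In CPM these were 0.392, 0.538 and 0.781 and 1.02, 2.98 and 4.55. Of the partners of Tyrobp and the Fc receptors, 8 of 12 were tested, with a median of -0.51. Fcgr2b, the inhibitory Fc receptor, was at -1.86 (SE 0.83) and Sirpa, an inhibitory receptor also found on neurons, at 1.21 (SE 0.54), both with an edgeR adjusted p of 0.447. Trem2, the lipid-sensing partner of Tyrobp, had 19, 44 and 10 reads in the control libraries and 0, 19 and 23 in the deeper pup libraries. In CPM these were 1.49, 3.95 and 1.56 and 0, 0.673 and 1.14. Every pup library thus lay below every control library, as in 9.60% of all genes tested. Its log2 fold change was -1.94 (SE 1.25, edgeR adjusted p = 0.569).

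Of 12 further complement genes all were tested, with 6 positive and 6 negative changes and a median of -0.016, and C3, the central component, had the smallest p (0.67, SE 0.40, edgeR adjusted p = 0.531). Of 10 chemokine genes 9 were tested, with a median of -0.38. Cxcl2, a chemokine that attracts neutrophils, was at 6.90, 2.60 and 3.44 CPM in the control libraries and 30.5, 19.4 and 8.01 CPM in the pup libraries. Its groups did not overlap, and its log2 fold change of 2.15 (SE 0.59) had an edgeR adjusted p of 0.395. It passed in DESeq2 (adjusted p = 0.0491) and in edgeR without a filter (adjusted p = 0.0228). Over all alternatives its log2 fold change lay between 1.66 and 3.05, with adjusted p from 0.0228 to 0.831. Of 8 kinases and other signalling genes related to CD45, 7 were tested, with a median of -0.63 and the Src-family kinase Fgr at -1.59 (SE 0.79, edgeR adjusted p = 0.482). Tlr4, a receptor for S100a8 and S100a9, had a log2 fold change of 0.82 (SE 0.75, edgeR adjusted p = 0.679), in a list of 6 of which 5 were tested, with a median of 0.54. That list also holds Basp1, Emp1 and Myd88, for which no receptor role is claimed here, and its median is the value of Basp1. The median therefore does not describe receptors alone. Vomeronasal neuron markers, the tissue's own, were present in all libraries, with Omp among them and a summed level of 1562 to 1797 CPM over 7 genes.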

How the data were processed

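RNA precipitated with an antibody to phosphorylated S6 was sequenced in 6 libraries, made with SMARTer low-input chemistry and sheared DNA per the labels' protocols. The authors deposited whole-number read counts per Ensembl gene, without normalization. The build named per the submitters' processing notes is GRCm38; which aligner, counter and strand setting were used is not given in the sources used here. GENCODE M21 named 36639 of 38561 IDs. Counts were tested with edgeR 4.0.16 (R 4.3.3): filterByExpr (minimum count 10, total 15), TMM, quasi-likelihood fit with the group, and an adjusted p threshold of 0.05. Alternatives used DESeq2 1.42.0, limma 3.58.1 (voom), other scalings and filters, the replicate block and left-out libraries. Log2 CPM used a prior count of 2. Intervals cover 95%. The fit was tested on simulated data. No pair of libraries in a group was close to a duplicate (chi-square over its degrees of freedom 86.2 to 299.7). Same-numbered libraries were not paired. The members and gene lists were chosen with earlier results of these data known. The genes named were the members, up to 4 genes per list by smallest p, ligands and near copies, and the 3 genes most like C1qa and S100a8. Hmgxb3, Bpifa1, Obp1a, Sprr1a, Muc5b, Ltf, Lcn2, Krt5, Krt6a, Krt6b, Dsg3, Krt14, Sprr3, Mzb1, Mcpt4, Kit, Csf3r, Spi1, Myd88, Omp, Obp2a, Obp2b and genes with few or 0 reads were named after their values were seen, as were the length classes. Some genes of the lists are not reported here.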

Additional observations from a re-analysis of the deposited data

How the results depend on the processing

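In all alternatives run, 0 members passed an adjusted p of 0.05. Over all genes the count went from 0 to 120 without a filter, 127 in DESeq2, 8 in limma-voom and 12 with sample quality weights. It stayed at 0 in the other alternatives, left-out libraries among them (0 to 0 genes and 0 to 0 members). With the replicate number as a block 0 genes and 0 members were called; deviations of same-numbered libraries correlated at -0.035, 0.18 and 0.075, so the numbers were not taken to pair libraries, and not every library correlated best with its own number. Under that replicate block Lyz2 turned to -1.25. Lyz2 also turned in limma-voom (-0.63), without pup exposure replicate 3 (-3.37) and, chosen after seeing the data, without both libraries rich in Lyz2 (-1.53). Cx3cr1 turned with RLE scaling (-0.0087), in DESeq2 (-0.00043), in limma-voom (-0.078), and when control exposure replicate 3 (-0.34) or replicate 2 (-0.31) or 3 (-0.098) of pup exposure was left out. C1qa turned with library totals only (0.033), where the median of all genes moved to 0.31, and without pup exposure replicate 2 (0.26) or replicate 3 (0.015). Csf1r turned without control exposure replicate 3 (-0.10) or pup exposure replicate 2 (-0.25), Tyrobp without pup exposure replicate 2 (0.043), S100a8 without pup exposure replicate 1 (-0.41), and S100a9 without control exposure replicate 1 (-0.077) or pup exposure replicate 1 (-0.49). Leaving out 1 library at a time, the log2 fold changes ran from -0.25 to 0.34 for Csf1r, -0.34 to 0.42 for Cx3cr1, -3.37 to 2.85 for Lyz2, -1.25 to 0.26 for C1qa, -0.47 to 0.043 for Tyrobp, -0.41 to 1.09 for S100a8 and -0.49 to 1.68 for S100a9. The cause was not tested. Aif1, C1qb and Ptprc kept a negative sign in all 17 alternatives. The log2 ratio of the members' summed share of counts, 0.69 with all libraries, ran from -1.23 to 1.93 with single libraries left out; it was 0.80 without the 50 most abundant genes and 0.083 without Lyz2. Medians of small lists moved too: with 1 library left out they ran from -0.42 to 0.36 for microglia, -0.22 to -0.017 for mononuclear phagocytes, 0.15 to 0.66 for Csf1r ligands and factors, -0.087 to 0.30 for complement, -1.03 to -0.23 for Tyrobp partners, -0.51 to -0.026 for chemokines, -0.92 to -0.045 for CD45 signalling, -0.088 to 0.16 for neutrophils and 0.25 to 1.24 for the list with Tlr4. In limma-voom the microglia median was -0.10. Thinning every library to 10590716 reads, added after seeing the data, changed no member's sign. With 1 to 418 reads per library for the 9 members other than Lyz2, counting error adds to the spread between libraries.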

Other observations

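Other immune cells were counted in the same libraries. Of 8 B and plasma cell genes 4 were tested, all with a negative change. The immunoglobulin light chain Igkc was at 166, 233 and 361 CPM in the control libraries and at 78.1, 47.5 and 117 CPM in the pup libraries (log2 fold change -1.65, SE 0.46, edgeR adjusted p = 0.395). Ighm (-1.49, SE 0.46) and Jchain (-1.56, SE 0.49), which joins secreted immunoglobulins, each had an edgeR adjusted p of 0.405, and in all 3 genes the pup libraries lay below the control libraries, as in 9.60% of all genes tested. The fourth tested gene, Mzb1, a chaperone of antibody secretion, was at -1.70 (SE 0.82, edgeR adjusted p = 0.469), and its groups overlapped. None passed in edgeR, and DESeq2 called Igkc (adjusted p = 0.0285); over all alternatives its adjusted p ran from 0.0285 to 0.831. The B cell surface genes Cd79a and Ms4a1 had at most 7 reads in any library. Of 6 mast cell genes 5 were tested, 4 of them negative, with a median of -0.41, which was 0.20 without control exposure replicate 3. The proteases Cma1 (-1.45, SE 0.50) and Tpsb2 (-1.37, SE 0.51) had an edgeR adjusted p of 0.424 each, while Mcpt4 was at -0.41 (SE 0.96), Cpa3 at -0.18 (SE 0.56) and Kit, the lineage receptor, at 1.20 (SE 1.11). T and NK cell genes were near 0, with a summed level of 1.17 to 7.37 CPM over 10 genes and 2 genes tested.

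Red blood cell genes, which mark blood left in the tissue, had a median log2 fold change of -1.50 over 4 tested genes, against -0.21 over the 9 members other than Lyz2. Hbb-bs was at 94.5, 143 and 302.4 CPM in the control libraries and at 71.4, 21.1 and 68.0 CPM in the pup libraries (log2 fold change -1.75, SE 0.55, edgeR adjusted p = 0.405). Without a filter edgeR called it lower (-1.72, adjusted p = 0.0306). The longest transcripts of Hbb-bs (628 bases), Igkc (532) and Cd68 (1230) are under 1500 bases, while those of Ighm (1698) and Jchain (2341) are not. The part of transcript length in the changes of these genes was not tested.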
